A study of Mus musculus with 9 samples.

Results

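The genes described here were the EGF family ligands and the proteins that release them from the cell surface, measured as RNA in MyC-CaP cells. They were taken by gene symbol from a table of 15552 genes, by a rule with no threshold on a measured value but written with earlier results of these data known, and comprised 10 genes: the ligands Tgfa, Btc, Hbegf, Egf, Areg, Ereg and Nrg1, the sheddases Adam10 and Adam17, and Rhbdf1. Rows were found for 7 of these 10 genes, 4 of the ligands together with Adam10, Adam17 and Rhbdf1. Areg, Ereg and Nrg1 were not analysed here. All 7 passed the filter on low counts and none was too low to measure, the lowest being Btc, with 40 to 74 counts per library, and Egf, with 43 to 70.

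MyC-CaP is a cell line from a MYC-driven mouse prostate tumor. Per the labels, the cells were starved in medium without serum and calcium and treated with recombinant NRG1 (rNRG1), a ligand of the receptor HER3, at 15 ng/mL. The 0 h, 12 h and 24 h groups held 3 libraries each, 9 in all, and the groups shared the cell line, the starvation and the agent named in the label. The 0 h libraries had no time with rNRG1 and were the reference for 12 h and 24 h. Total RNA was extracted and mRNA libraries were sequenced, so these values are bulk measurements of 1 line. No library without rNRG1 at 12 or 24 h was analysed here, so time in the starvation medium and time with rNRG1 cannot be told apart. The cells were plated in triplicate and labelled as biological replicates, and p-values measure the spread between these samples, some of which may be technical. In bulk RNA, fewer cells of a kind and less RNA per cell cannot be told apart.

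EGF family ligands are made as proteins anchored in the membrane, and most act on ErbB receptors after a metalloprotease has cut them free, a step called ectodomain shedding. ADAM17 is the main sheddase of TGF-alpha and heparin-binding EGF, and ADAM10 is the main sheddase of EGF and betacellulin. ADAM17 reaches the cell surface only with an iRhom, an inactive rhomboid protein encoded by Rhbdf1 or Rhbdf2. Released ligands bind EGFR, and betacellulin and heparin-binding EGF also bind HER4, whereas neuregulin 1 binds HER3 and HER4. The counts measured RNA and not the amount of protein or its cleavage.

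The libraries held 28467089 to 39239760 counts, and 11373 genes were tested. A count of 0 allowed at most 0.0764 to 0.106 CPM (counts scaled to library size), for counting error only, and each of the 7 genes was above this limit in every library. The label calls the cells epithelial-like. Among epithelial markers, Krt8 was present at 18.2 CPM ± 1.30 (SD, n = 3) at 0 h, but Epcam and Cdh1 did not exceed 4 counts in any library and Krt18 did not exceed 17. Krt8 was higher at 12 h by 0.30 on the log2 scale (adjusted p = 0.0169) and at 24 h by 0.34 (adjusted p = 0.0107). The fibroblast markers summed to between 15.3 and 18.0 CPM over all libraries, nearly all of it Pdgfra, with Col1a2 at 1 count or fewer. The immune markers summed to at most 1.11 CPM and the endothelial markers to at most 0.359 CPM. Most of the immune sum was Cd68, at 11 to 31 counts per library, with Ptprc at 8 counts or fewer. The part of these markers in the results was not tested.

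Sequence around the RefSeq gene start (GRCm38.p6) is shown for Tgfa, Adam10 and Adam17, 3 of the genes whose RNA changed, so that the start of each can be seen beside its counts. Each run covers 300 bases, from 250 before the start to 50 after it, 5′ to 3′ on the strand of the gene. Capitals mark the GC box GGGCGG and the MYC E-box CACGTG, searched on both strands together with the AP-1 motif TGANTCA. The runs lie at chr6:86194972-86195271 on the plus strand for Tgfa, chr9:70678732-70679031 on the plus strand for Adam10 and chr12:21373583-21373882 on the minus strand for Adam17.
Tgfa: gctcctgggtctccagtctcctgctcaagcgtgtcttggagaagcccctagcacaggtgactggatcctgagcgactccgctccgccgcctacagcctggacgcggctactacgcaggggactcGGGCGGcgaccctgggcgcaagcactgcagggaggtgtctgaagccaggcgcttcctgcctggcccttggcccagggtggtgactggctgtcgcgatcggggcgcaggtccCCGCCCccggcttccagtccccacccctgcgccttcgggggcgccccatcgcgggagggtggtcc
Adam10: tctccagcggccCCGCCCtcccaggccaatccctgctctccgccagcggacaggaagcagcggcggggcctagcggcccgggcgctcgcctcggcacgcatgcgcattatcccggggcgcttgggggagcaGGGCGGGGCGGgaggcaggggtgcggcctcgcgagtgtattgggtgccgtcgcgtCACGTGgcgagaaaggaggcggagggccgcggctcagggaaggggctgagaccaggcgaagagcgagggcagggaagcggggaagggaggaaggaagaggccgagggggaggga
Adam17: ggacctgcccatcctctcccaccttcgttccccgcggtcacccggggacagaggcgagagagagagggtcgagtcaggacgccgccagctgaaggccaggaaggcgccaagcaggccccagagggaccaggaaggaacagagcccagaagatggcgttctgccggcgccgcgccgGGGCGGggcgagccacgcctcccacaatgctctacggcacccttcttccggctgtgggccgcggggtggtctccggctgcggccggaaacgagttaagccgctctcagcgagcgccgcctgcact
The Tgfa run held 2 GC boxes, whose first letters lay at -126 and -15 from the start. The Adam10 run held 3 GC boxes, at -238, -119 and -114, the last pair sharing 1 base, and 1 E-box at -64. The Adam17 run held 1 GC box at -75. GGGCGG was present in 35.7% of 32851 promoters of the same length, CACGTG in 7.15% and TGANTCA in 7.81%, and TGANTCA was in none of the 3 runs. The promoters listed for Btc (1) and Egf (2) held none of the 3 motifs and are not printed. For Rhbdf1, whose RNA also changed, and for Hbegf no promoter was listed, so neither was searched for these motifs. A match is a description of letters in these windows.

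To compare levels between genes, CPM were divided by the kilobases of exon of each gene. At 0 h the order by level per length was Adam10 at 61.5 CPM per kilobase ± 1.70 (SD, n = 3), Adam17 at 17.0 ± 0.388, Rhbdf1 at 11.9 ± 0.544, Tgfa at 1.81 ± 0.0814, Hbegf at 1.54 ± 0.0606, Btc at 0.381 ± 0.0362 and Egf at 0.161 ± 0.00316. The 2 sheddase genes and Rhbdf1 were thus far above the ligand genes. Rhbdf1, the lowest of these, was at 6.58 times the level of Tgfa, its nearest neighbour below (4.90 times per kilobase of the longest transcript). Among ligands, Tgfa and Hbegf lay close together, at a ratio of 1.18 per kilobase of exon, and Hbegf stood at 4.05 times Btc. The order was the same at 12 h and at 24 h, and with these exon lengths no neighbouring pair in the order overlapped among the 3 libraries of any time point. Per kilobase of the longest transcript the order of the means was the same, but Tgfa and Hbegf overlapped at 0 h, at a ratio of 1.01, and at 12 h, at 1.19, and Btc and Egf overlapped at 24 h. The level of Egf at 0 h was then 0.381 CPM per kilobase of transcript in place of 0.161. Per kilobase of exon, the ratio of Tgfa to Hbegf was 1.39 at 12 h and 1.49 at 24 h.

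**Figure D1:**
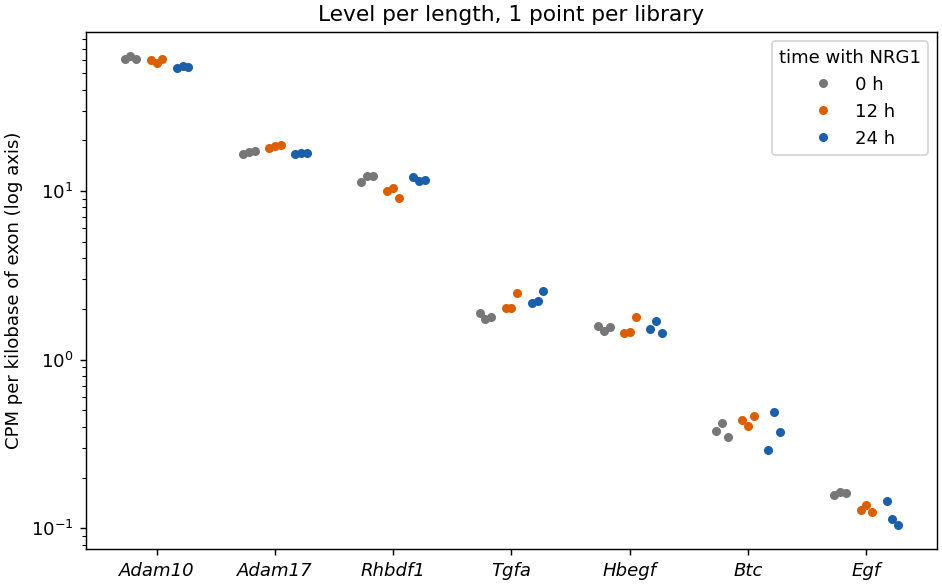
Level per length of the 7 measured genes, in CPM per kilobase of exon on a log axis, with 1 point per library and colors for 0, 12 and 24 h. Adam10, Adam17 and Rhbdf1 sit above every ligand gene at every time, and Egf is lowest with these lengths, at 0.161 CPM per kilobase at 0 h.

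The question of the time course was how RNA changed with rNRG1, and each gene was compared between the 3 time points in 1 edgeR model over all tested genes. At 12 h against 0 h, 3 of the 7 genes passed an adjusted p of 0.05, with Tgfa and Adam17 higher and Rhbdf1 lower, where 25.5% of all genes tested passed (13.6% higher and 11.9% lower). At 24 h against 0 h, 2 passed, with Tgfa higher and Adam10 lower, where 17.4% of all genes passed (9.67% higher and 7.76% lower). Between 12 h and 24 h, 2 passed, with Rhbdf1 higher and Adam17 lower at 24 h, where 5.03% of all genes passed (1.97% higher and 3.06% lower). None of the 7 changed by 1.5-fold or more in a comparison it passed, a rule met by 2.29%, 2.27% and 0.29% of all genes tested in these 3 comparisons. Comparisons against 0 h share the same 3 libraries at 0 h. The median log2 fold change over all tested genes was -0.0028 at 12 h, -0.0065 at 24 h and 0.0023 between 12 h and 24 h.

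**Figure D2:**
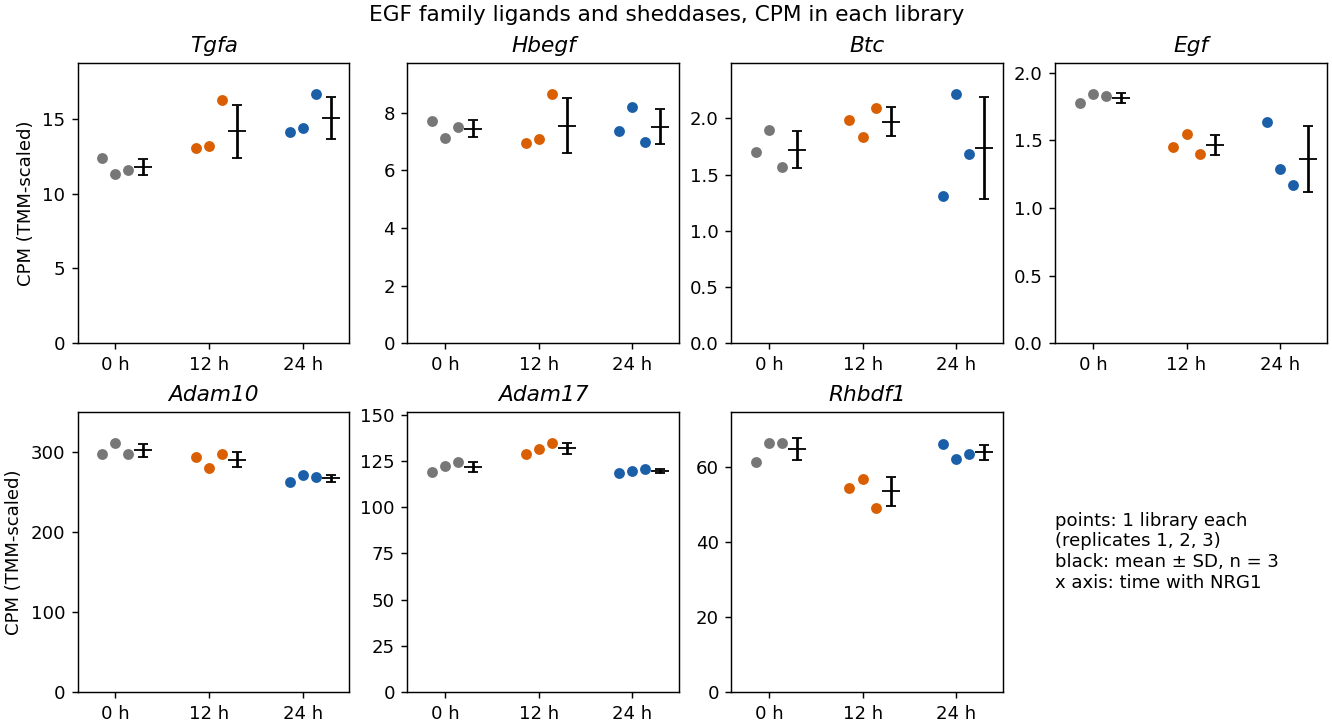
CPM after TMM scaling of the 7 measured genes in each of 9 libraries, with replicates 1 to 3 from left to right at each time and the mean ± SD (n = 3) in black. Tgfa is above its 0 h libraries in all libraries at 12 and 24 h, Adam10 is below at 24 h, and Adam17 and Rhbdf1 depart from 0 h at 12 h and lie near it at 24 h.

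Tgfa (ENSMUSG00000029999.14, chr6:86195223-86275719, plus strand), which encodes TGF-alpha, had the highest mean level per length of the ligand genes measured. It had 12.4, 11.3 and 11.6 CPM in replicates 1, 2 and 3 at 0 h, 13.1, 13.2 and 16.2 CPM at 12 h, and 14.1, 14.4 and 16.6 CPM at 24 h. Every library at 12 h and 24 h was above every library at 0 h, and replicate 3 was the highest at both later times. The means were 11.8 ± 0.528, 14.1 ± 1.79 and 15.0 ± 1.39 CPM (SD, n = 3). The log2 fold change was 0.27 ± 0.095 (SE) at 12 h (adjusted p = 0.0494) and 0.36 ± 0.094 at 24 h (adjusted p = 0.0136). Between 12 h and 24 h it was 0.094, with a 95% confidence interval of -0.10 to 0.29 (adjusted p = 0.622). The 12 h call was lost on leaving out any 0 h library, the third 12 h library or the first 24 h library (the first, the second and the third library of a time being its replicates 1, 2 and 3). Without the third 12 h library gave 0.17 (adjusted p = 0.219), and leaving out each of the other 4 gave 0.25 to 0.30. The call also ended with limma-voom, total counts or a fit of the 2 time points (0.26 each). At 24 h, leaving out the second 0 h library gave 0.34 (adjusted p = 0.0550) and leaving out the third 24 h library gave 0.28 (adjusted p = 0.0937), so either ended the call.

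Hbegf (ENSMUSG00000024486.6, chr18:36504927-36515805, minus strand), which encodes heparin-binding EGF, stayed in one range across the time course. Its libraries had 7.70, 7.13 and 7.52 CPM at 0 h, 6.96, 7.08 and 8.65 CPM at 12 h, and 7.37, 8.19 and 7.005 CPM at 24 h, so the 3 groups overlapped. As for Tgfa, the highest library at 12 h was replicate 3. In edgeR its log2 fold change was 0.020 at 12 h (95% confidence interval -0.21 to 0.25, adjusted p = 0.918) and 0.014 at 24 h (-0.21 to 0.24, adjusted p = 0.951). These intervals leave room for changes of either sign that are as large as the 12 h change of Adam17.

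Btc (ENSMUSG00000082361.6, chr5:91357261-91402994, minus strand), which encodes betacellulin, was measured from few counts. It had 1.70, 1.89 and 1.57 CPM at 0 h, 1.98, 1.83 and 2.09 CPM at 12 h, and 1.31, 2.21 and 1.68 CPM at 24 h. The highest and the lowest of the 9 libraries were both at 24 h. Changes on the log2 scale were 0.19 at 12 h (-0.25 to 0.62, adjusted p = 0.546) and 0.012 at 24 h (-0.43 to 0.45, adjusted p = 0.980). These wide intervals leave room for changes of either sign.

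Egf (ENSMUSG00000028017.7, chr3:129677565-129755316, minus strand), which encodes the EGF precursor, had the lowest mean level per length of the 4 ligand genes among the 7. Opposite other genes lay 9.82% of its exon bases, and reads of either strand cannot be told apart where counting did not use strand. It had 1.77, 1.84 and 1.83 CPM at 0 h, 1.45, 1.54 and 1.40 CPM at 12 h, and 1.64, 1.29 and 1.17 CPM at 24 h. All libraries at 12 h and 24 h were below all libraries at 0 h, but the test was not passed. Egf had a log2 fold change of -0.31 ± 0.19 at 12 h (-0.72 to 0.10, adjusted p = 0.271) and -0.42 ± 0.20 at 24 h (-0.84 to -0.011, adjusted p = 0.155). Groups that did not overlap were frequent among all genes tested, at 38.4% for 12 h against 0 h (19.9% higher and 18.5% lower) and 35.5% for 24 h against 0 h (17.6% higher and 17.9% lower). Among the 7 genes this held for 4 at 12 h, Tgfa and Adam17 above and Egf and Rhbdf1 below, and for 3 at 24 h, Tgfa above and Egf and Adam10 below.

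Summed per kilobase of exon, the 4 measured ligands were made up mostly of Tgfa and Hbegf. The share of Tgfa in that sum was 46.5% ± 0.657 (SD, n = 3) at 0 h, 50.5% ± 0.635 at 12 h and 52.9% ± 4.02 at 24 h. Single libraries gave 47.2%, 45.9% and 46.4% at 0 h, 50.1%, 50.3% and 51.3% at 12 h, and 52.5%, 49.1% and 57.1% at 24 h. All libraries at 12 h and 24 h lay above those at 0 h, and the spread at 24 h was wider than at the other 2 times. The share was not tested, its size depends on the exon lengths used, and it omits Areg and Ereg.

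Of the other EGF family ligands, Nrg4, which encodes a ligand of HER4, was tested on 5 to 19 counts per library and passed in no comparison. Its log2 fold change was 0.16 at 12 h (adjusted p = 0.832) and -0.18 at 24 h. Epgn, which encodes epigen, had 8 counts or fewer and Nrg2, which encodes neuregulin 2, had 3 or fewer in every library, and neither was tested. Nrg3 was not analysed here.

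Adam10 (ENSMUSG00000054693.14, chr9:70678997-70780229, plus strand) had the highest RNA level of the 7 genes and fell with time. Its libraries had 297.6, 312 and 297.45 CPM at 0 h, 294, 280.6 and 298 CPM at 12 h, and 262, 271 and 269 CPM at 24 h. The 24 h libraries were below all libraries of both earlier times, while 12 h and 0 h overlapped. Means were 302 ± 8.33, 291 ± 9.11 and 268 ± 4.66 CPM. Adam10 had a log2 fold change of -0.056 ± 0.036 at 12 h (adjusted p = 0.293) and -0.18 ± 0.036 at 24 h (adjusted p = 0.00277). Between 12 h and 24 h it was -0.12 ± 0.037 (adjusted p = 0.0663), a comparison in which 25.0% of all genes tested had groups that did not overlap (11.4% higher and 13.6% lower at 24 h). The fall at 24 h kept its call in all 17 alternatives run for it, at -0.19 to -0.15.

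Adam17 (ENSMUSG00000052593.16, chr12:21323509-21373632, minus strand, with 4.35% of its exon bases opposite Iah1) was higher at 12 h than at the other 2 times. It had 119, 122 and 124 CPM at 0 h, 129, 132 and 135 CPM at 12 h, and 118, 120 and 120 CPM at 24 h. The 12 h libraries were above all others, and the 24 h libraries fell within or just under the range at 0 h. Means were 122 ± 2.78, 132 ± 2.99 and 119 ± 1.16 CPM. The log2 fold change was 0.11 ± 0.036 at 12 h (adjusted p = 0.0289), -0.029 ± 0.036 at 24 h (adjusted p = 0.646) and -0.14 ± 0.036 between 12 h and 24 h (adjusted p = 0.0314). The higher level at 12 h no longer passed on leaving out the first 0 h library (0.095) or the second or the third 12 h library (0.11 each), or when libraries were scaled by total counts (0.10) or only the 2 time points were fitted (0.11). The lower level at 24 h than at 12 h no longer passed on leaving out the first or the second 12 h library or any 24 h library, at -0.16 to -0.13, and with total counts (-0.13).

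Rhbdf1 (ENSMUSG00000020282.18, chr11:32209585-32222300, minus strand), which encodes iRhom1, moved opposite to Adam17 at 12 h. It had 61.4, 66.5 and 66.5 CPM at 0 h, 54.4, 57.0 and 49.2 CPM at 12 h, and 66.3, 62.3 and 63.6 CPM at 24 h. Each 12 h library was below each library of the other 2 times, and 0 h and 24 h overlapped. Means were 64.8 ± 2.95, 53.5 ± 3.99 and 64.0 ± 2.02 CPM. The log2 fold change was -0.28 ± 0.054 at 12 h (adjusted p = 0.00121), -0.019 ± 0.053 at 24 h (-0.13 to 0.093, adjusted p = 0.854) and 0.26 ± 0.054 between 12 h and 24 h (adjusted p = 0.0111). The fall at 12 h kept its call in all 17 alternatives, at -0.32 to -0.21. The rise from 12 h to 24 h lost its call, among the 17 alternatives, only on leaving out the first 24 h library, at 0.24 (adjusted p = 0.0583).

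**Figure D3:**
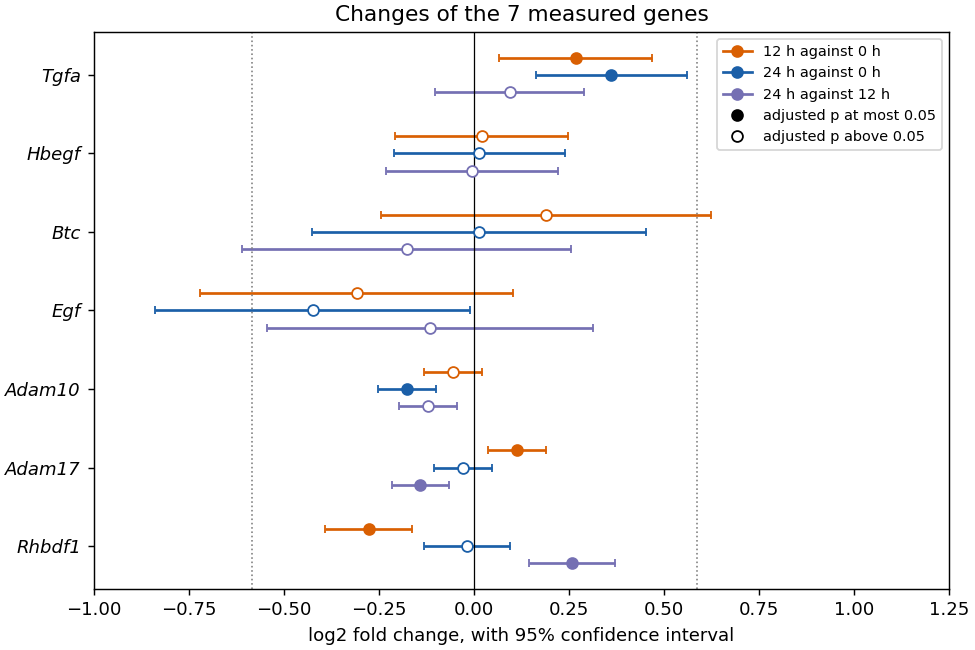
Log2 fold change of the 7 measured genes in the 3 comparisons, with 95% confidence intervals from edgeR; filled points have an adjusted p of at most 0.05 and dotted lines mark a 1.5-fold change. All 7 estimates lie inside the dotted lines in each comparison, and Adam17 and Rhbdf1 have opposite signs at 12 h and between 12 h and 24 h.

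Rhbdf2, which encodes iRhom2, the other iRhom of ADAM17, had 18.8, 17.9 and 17.3 CPM at 0 h, 16.3, 19.2 and 20.1 CPM at 12 h, and 18.9, 19.5 and 18.6 CPM at 24 h. Its groups overlapped, with a log2 fold change of 0.038 at 12 h (adjusted p = 0.768) and 0.079 at 24 h (adjusted p = 0.541). Rhbdf1 was the more abundant per length and made up 77.8% ± 1.52 (SD, n = 3) of the 2 iRhoms at 0 h, 73.8% ± 3.10 at 12 h and 76.6% ± 0.869 at 24 h. The level per length of Adam17 divided by that of both iRhoms was 1.12, 1.10 and 1.12 at 0 h, 1.37, 1.30 and 1.47 at 12 h, and 1.05, 1.10 and 1.11 at 24 h. All 12 h libraries were above the others, with means of 1.11 ± 0.0129, 1.38 ± 0.0814 and 1.09 ± 0.0331. This ratio combines the values of Adam17 and Rhbdf1 given above and was not tested. The ratio of Adam10 to Adam17 per kilobase of exon was 3.62 ± 0.115 at 0 h, 3.22 ± 0.112 at 12 h and 3.26 ± 0.0373 at 24 h. Per kilobase of the longest transcript, the ratio of their means was 2.42, 2.15 and 2.18. The size of the iRhom share and of the Adam17 to iRhom ratio likewise depends on the lengths used, here those of the exons.

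**Figure D4:**
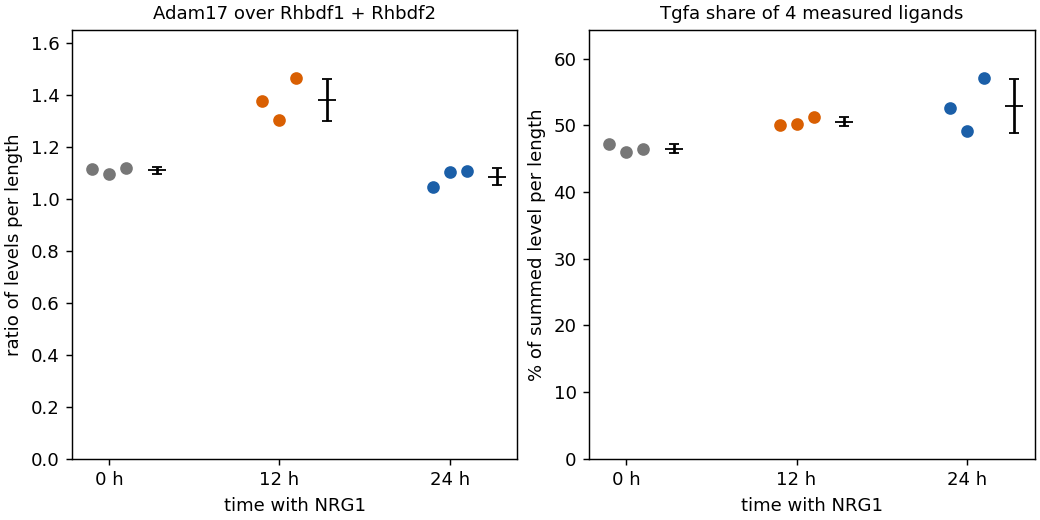
Left, level per length of Adam17 divided by the summed level of Rhbdf1 and Rhbdf2; right, share of Tgfa in the summed level per length of 4 measured ligands, in percent; 1 point per library, with the mean ± SD (n = 3) in black. The ratio is 1.30 to 1.47 at 12 h and at most 1.12 at the other 2 times, and the Tgfa share is above its 0 h libraries in all later libraries.

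Among iRhom and rhomboid partners, 4 of 5 genes were tested, and at 12 h 2 were higher and 1 lower, where 13.6% of all genes tested were higher and 11.9% lower. At 24 h 1 was higher, where 9.67% of all genes tested were higher. Rhbdl2, a rhomboid protease of the cell surface, rose by 0.48 ± 0.098 on the log2 scale at 12 h (adjusted p = 0.00175) and by 0.33 ± 0.099 at 24 h (adjusted p = 0.0280). Its libraries had 6.74 to 8.50 CPM at 0 h, 10.1 to 11.3 CPM at 12 h and 8.94 to 10.1 CPM at 24 h, with no overlap between 0 h and the later times. Frmd8, whose product stabilizes iRhoms and ADAM17 at the cell surface, rose by 0.14 ± 0.039 at 12 h (adjusted p = 0.0174), from 84.8 ± 2.44 to 93.1 ± 2.75 CPM. Rhbdl1, a further rhomboid gene, had a log2 fold change of -0.97 ± 0.28 at 12 h (adjusted p = 0.0174), but 81.4% of its exon bases are shared with Gm20683 on the same strand, so its counts are uncertain, and its groups overlapped. Leaving out the second or the third 0 h library, or the first or the second 12 h library, ended its call at -0.95 to -0.76. The Frmd8 call ended on leaving out the third 0 h library (0.12), and the 24 h call of Rhbdl2 on leaving out the first or the third library of 0 h or 24 h (0.26 to 0.34). Rhbdl3 had at most 3 counts.

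Of the other sheddases, 4 of 9 were tested. At 12 h 1 was higher and 1 lower, and at 24 h 1 was higher, where 25.5% and 17.4% of all genes tested passed. Adam9, an ADAM protease that can cut heparin-binding EGF, was higher at 12 h by 0.17 ± 0.041 on the log2 scale (adjusted p = 0.00503), with 243, 266 and 255 CPM at 0 h against 284, 276 and 302 CPM. Bace1, a protease that cuts neuregulin 1 and the amyloid precursor, was lower at 12 h (log2 fold change -0.28 ± 0.066, adjusted p = 0.00514), though 32.5% of its exon bases lie opposite other genes. Adam8 was higher at 24 h by 0.65 ± 0.18 (adjusted p = 0.0202), from 1.98 ± 0.454 to 3.11 ± 0.0845 CPM, and this call ended on leaving out the third 0 h library (0.48) or the second 24 h library (0.63). Adam15 passed in no comparison. Adam19, Bace2 and Mep1a had at most 6 counts, and Adam12 and Mep1b were not analysed here.

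Of 5 sheddase inhibitors 4 were tested, and all 4 passed at 12 h, 1 higher and 3 lower, and 3 passed at 24 h, 1 higher and 2 lower, where 25.5% of all genes tested passed at 12 h and 17.4% at 24 h. The 4 genes went both ways, with log2 fold changes of -1.86 to 0.49 at 12 h (median -0.35) and -1.70 to 0.42 at 24 h (median -0.19), where the median of all genes was -0.0028 and -0.0065. Timp1, an inhibitor of metalloproteases that can inhibit ADAM10, had 9.68 to 11.8 CPM at 0 h, 13.2, 15.7 and 15.4 CPM at 12 h, and 14.4, 13.4 and 14.3 CPM at 24 h. It was higher in every later library, with a log2 fold change of 0.49 ± 0.092 at 12 h (adjusted p = 0.000891) and 0.42 ± 0.092 at 24 h (adjusted p = 0.00433). Timp2, a related inhibitor, had 303, 280 and 305 CPM at 0 h, 239, 245 and 227 CPM at 12 h, and 268, 263 and 273 CPM at 24 h. Its 3 groups did not overlap, with 12 h lowest and 24 h between. The log2 fold change was -0.32 ± 0.041 at 12 h (adjusted p = 2.7e-05), -0.14 ± 0.041 at 24 h (adjusted p = 0.0221) and 0.18 ± 0.041 between 12 h and 24 h (adjusted p = 0.0186). Leaving out the first or the third 0 h library or any 24 h library ended its 24 h call (-0.15 to -0.12), and leaving out the first 12 h library or any 24 h library ended its call between those times (0.17 to 0.19).

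Timp4 and Reck were the other inhibitors that fell at 12 h, and Timp4 fell at 24 h as well. Timp4, a further inhibitor of the family, had 26 to 30 counts per library at 0 h and 4 to 12 counts in every later library. Its fitted log2 fold change was -1.86 ± 0.37 at 12 h (adjusted p = 0.00149) and -1.70 ± 0.36 at 24 h (adjusted p = 0.00323). Reck, a membrane-anchored inhibitor of metalloproteases including ADAM10, went from 7.81 ± 0.832 CPM at 0 h to 5.95 ± 0.490 CPM at 12 h, a log2 fold change of -0.39 ± 0.11 (adjusted p = 0.0143). That call ended on leaving out the first 0 h library (-0.30) or the third 12 h library (-0.33). Timp3, the inhibitor best known for ADAM17, had at most 6 counts in any library and was not tested.

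**Figure D5:**
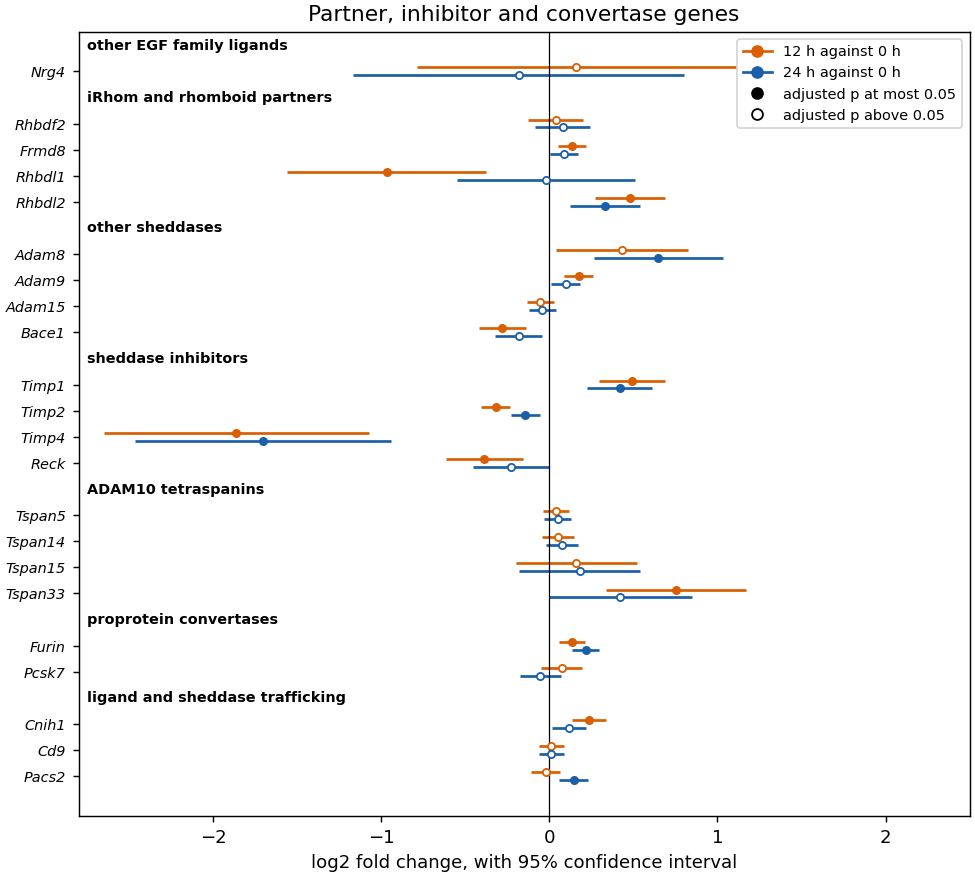
Log2 fold change with 95% confidence interval of the tested partner, inhibitor, convertase and trafficking genes at 12 h and 24 h against 0 h, grouped by role; filled points have an adjusted p of at most 0.05. Timp1 lies to the right of 0 at both times, Timp2 and Timp4 lie to the left at both, and Furin lies to the right at both.

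ADAM10 is carried to the cell surface by tetraspanins of the TspanC8 group, of which 4 of 6 genes were tested. Of these 4, 1 passed at 12 h and 0 at 24 h, where 25.5% and 17.4% of all genes tested passed. Tspan33 was higher at 12 h, with 1.85, 2.26 and 2.00 CPM at 0 h against 2.96, 4.44 and 3.00 CPM, a log2 fold change of 0.75 ± 0.20 (adjusted p = 0.00984) that was 0.54 on leaving out the second 12 h library (adjusted p = 0.0676). Tspan5, Tspan14 and Tspan15 passed in no comparison, Tspan10 had at most 1 count and Tspan17 was not analysed here. Proprotein convertases remove the inhibitory pro-domain of both sheddases. Of 4 such genes 2 were tested, and 1 was higher at each time, where 13.6% of all genes tested were higher at 12 h and 9.67% at 24 h. Furin was higher at both times, with 120.2, 113.2 and 113.5 CPM at 0 h, 126, 129 and 125 CPM at 12 h, and 135, 132 and 136 CPM at 24 h. Its log2 fold change was 0.13 ± 0.037 at 12 h (adjusted p = 0.0133), not passed on leaving out the second library of either time (0.12), and 0.22 ± 0.037 at 24 h (adjusted p = 0.000591). Pcsk7 passed in no comparison, and Pcsk5 and Pcsk6 had at most 3 counts.

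Genes for the trafficking of ligands and sheddases gave 1 call at each time, of 3 tested, where 25.5% of all genes passed at 12 h and 17.4% at 24 h. Cnih1, a cornichon protein of ligand export from the endoplasmic reticulum, rose by 0.24 ± 0.048 on the log2 scale at 12 h (adjusted p = 0.00163), from 53.4 ± 2.38 to 63.1 ± 1.97 CPM, with 14.1% of its exon bases opposite Gm48933. Pacs2, a sorting protein known for the recycling of ADAM17, was higher at 24 h by 0.15 ± 0.040 against 0 h (adjusted p = 0.0184) and by 0.17 ± 0.040 against 12 h (adjusted p = 0.0239). The first of these calls ended on leaving out the first library of 0 h (0.13) or 24 h (0.14), and the second on leaving out the first or the second 12 h library or any 24 h library (0.16 to 0.18). Cd9, a tetraspanin that binds the heparin-binding EGF precursor, had a log2 fold change of 0.012 at both times, and Nkd2 had at most 2 counts. Of the partner and inhibitor genes above, Timp4, Rhbdl1 and Tspan33 at 12 h and Timp4 and Adam8 at 24 h also met the 1.5-fold rule.

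Of 4 ErbB receptor genes 3 were tested, and Erbb4, which encodes HER4, was not analysed here. At each time 2 were lower, where 11.9% of all genes tested were lower at 12 h and 7.76% at 24 h. Egfr had a log2 fold change of -0.41 at 12 h (adjusted p = 5.8e-05) and -0.22 at 24 h (adjusted p = 0.0131). Erbb2 had -0.31 (adjusted p = 0.000129) and -0.17 (adjusted p = 0.0174), and Erbb3 passed in neither comparison. The 24 h call of Egfr ended on leaving out the second 0 h library or the first or the third 24 h library (-0.20 to -0.19). That of Erbb2 ended on leaving out the first or the third 0 h library or the second or the third 24 h library (-0.17 to -0.14).

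The genes most like each member that passed a test were found by the root mean square (RMS) difference of log2 CPM over the 9 libraries, each gene centred on its own mean, among 9416 genes of at least 5 CPM. For Rhbdf1 they were Tead3 and Man2a2, at RMS differences of 0.037 and 0.039, where the median over candidates was 0.17. Their log2 fold changes at 12 h were -0.25 and -0.27, beside -0.28 for Rhbdf1. For Adam17 they were Afg3l2 and Ppp1cb (0.020 each, median 0.10), for Adam10 Canx and Lpin2 (0.021 and 0.022, median 0.11), and for Tgfa Tbc1d12 and Tiam2 (0.060 and 0.070, median 0.20). Likeness here is a description of 9 libraries at 3 times, which share the scaling to library size.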

How the data were processed

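The data were 9 RNA-seq libraries, 3 at each of 0, 12 and 24 h with rNRG1, grouped by the time in the labels. The authors trimmed reads with Cutadapt, aligned them to GRCm38 with STAR and counted reads per gene with featureCounts on a GENCODE annotation, and the deposited values are raw counts per gene, without normalization. The strand setting and the treatment of reads matching several genes are not given in the sources used here. Another 14 columns of the table were empty. Library totals were 28467089 to 39239760 counts.

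Counts were filtered with filterByExpr and scaled by TMM in edgeR 4.0.16 (R 4.3.3). All 9 libraries entered 1 model (glmQLFit), from which the 3 comparisons of times were tested with glmQLFTest, two-sided, with Benjamini-Hochberg adjustment over 11373 genes. A gene passed at an adjusted p of at most 0.05, and the rule of a 1.5-fold change, taken from the study, was applied in addition where stated. CPM are TMM-scaled, and exon lengths came from GENCODE vM21 for GRCm38. Procedures were tested on simulated data with planted changes of 1.5-fold or more, so recovery of smaller changes, such as those of the members, was not examined there. All members were reported, together with pathway genes that passed at 12 or 24 h, at most the 3 largest in each direction per list. The members and lists were chosen with earlier results of these data known. DESeq2 1.42.0, limma 3.58.1, other scalings, no filter, fits of 2 time points, a replicate block and leaving out each library were tried as alternatives. One of the cell type markers is not reported here.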

Additional observations from a re-analysis of the deposited data

Results flagged for a closer look

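For 4 of the member and pathway genes tested, the change from 0 h differed between 12 h and 24 h by the direct edgeR test. They were 2 of the 7 members, 1 of 4 tested sheddase inhibitors and 1 of 3 tested trafficking genes. In each other pathway list 0 genes passed. In this test of 24 h against 12 h, 5.03% of all genes tested passed (1.97% higher and 3.06% lower). Groups that did not overlap were found for 25% of all genes tested. Each of the 4 calls ended on leaving out at least 1 single library, as given above. Adam17 was lower at 24 h than at 12 h by a log2 difference of -0.14 (adjusted p = 0.0314), lower in 3 of 3 libraries. For Rhbdf1 the difference was 0.26 (adjusted p = 0.0111), and its 24 h libraries were all higher than those at 12 h. Timp2 gave a difference of 0.18 (adjusted p = 0.0186) and Pacs2 one of 0.17 (adjusted p = 0.0239), and for both the 3 libraries at 24 h were above the 3 at 12 h.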

How the results depend on the processing

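Among the members and the receptor, partner and inhibitor genes tested, no log2 fold change that passed the test changed sign under any alternative run. This was not examined for Krt8 or for the other genes that passed. Testing for a change of more than 1.5-fold with edgeR's glmTreat left 4 genes at 12 h and 6 at 24 h against 0 h, and 0 between 12 h and 24 h, where 46 genes had an unadjusted p under 0.05 and an estimate of at least 1.5-fold was called for 33 genes by edgeR, 34 by DESeq2 and 31 by limma-voom. Of the members, 1 passed at 12 h with total counts and 1 with a fit of only the 2 time points, and 1 passed between 12 h and 24 h with total counts. Without the low count filter, 53 genes were called between 12 h and 24 h and 950 passed the adjusted p alone, against 572. Leaving out each library in turn gave 1 to 3 members passing at 12 h (1 without 0 h replicate 1 or 12 h replicate 3), 1 to 2 at 24 h (1 without 0 h replicate 2 or 24 h replicate 3) and 0 to 2 between 12 h and 24 h (0 without 24 h replicate 1, and 1 without 12 h replicate 1 or 2 or 24 h replicate 2 or 3). It gave 200 to 280 genes called at 12 h, 182 to 279 at 24 h and 16 to 36 between 12 h and 24 h (16 without 24 h replicate 1). Genes passing the adjusted p alone in the last comparison numbered 214 to 879, with 879 without 12 h replicate 3, 214 without 12 h replicate 1, and 217, 220 and 263 without 24 h replicates 1, 2 and 3. Adam10 passed between 12 h and 24 h in DESeq2, at -0.12 (adjusted p = 0.0409), and Adam8 at 12 h, Bace1 and Erbb3 at 24 h, and Egfr, Erbb2, Erbb3 and Rhbdl1 between 12 h and 24 h passed under some alternatives only. Per longest transcript, the levels at 0 h were 65.8 CPM per kilobase for Adam10, 27.2 for Adam17, 12.7 for Rhbdf1, 2.60 for Tgfa, 2.58 for Hbegf, 0.428 for Btc and 0.381 for Egf, in the same order, with Tgfa and Hbegf overlapping. The replicate numbers gave no clear sign of pairing, though with 3 libraries per time this check cannot exclude it. Deviations of libraries with the same number correlated at -0.074 to 0.13, and those with other numbers at -0.13 to 0.12. Of the same-number pairs 1 of 9 was over 0.1, and 4 libraries correlated best with their own number. With the replicate block, 268, 259 and 33 genes were called in the 3 comparisons and 3, 2 and 2 members passed. The cause of these differences was not tested. Depth limits Btc and Egf, whose counts stayed at 74 or fewer.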
